A study of Homo sapiens with 16 samples.

Results

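The major histocompatibility complex (MHC) class II genes and their transactivator CIITA were examined in multiple myeloma cells treated with a SUMOylation inhibitor, a glucocorticoid or both. The members were 10 genes chosen by symbol from a table of 23354, namely HLA-DRA, HLA-DRB1, HLA-DPA1, HLA-DPB1, HLA-DQA1, HLA-DQB1, HLA-DMA, HLA-DMB, CD74 and CIITA. All 10 had a row and 9 passed the filter on low counts. HLA-DQA1 did not pass. Ribo-Zero RNA-seq had been performed on MM1S, the dexamethasone (Dex)-sensitive line, and MM1R, its Dex-resistant counterpart. Over 48 h, cells of each line had been exposed to vehicle (Veh), to TAK-981 at 0.1 μM (TAK), to Dex at 1 μM, or to both agents at these doses (combo). Each of these 8 groups holds 2 libraries. TAK-981 blocks the E1 enzyme that activates SUMO for conjugation to proteins, and Dex is a ligand of the glucocorticoid receptor. The study that produced the data describes expression of this receptor as absent in MM1R. The receptor was not examined here. Each line is a single established culture, so that any difference between MM1S and MM1R cannot be told apart from other differences between these cultures. The labels do not say whether the 2 libraries of a group came from separate cultures, and p-values therefore measure a spread between libraries that may be technical.

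Class II molecules are alpha-beta dimers (HLA-DR, HLA-DP and HLA-DQ) that present peptides from endosomes to CD4+ T cells. CD74, the invariant chain, occupies the peptide groove until it is degraded, and HLA-DM, a dimer of HLA-DMA and HLA-DMB, then exchanges its remnant for peptide. CIITA binds no DNA itself and is recruited by RFX, CREB and NF-Y proteins assembled on the X and Y boxes of class II promoters. It is expressed in B cells and usually silenced as they become plasma cells, the normal counterpart of myeloma cells.

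Sequences of the promoters are shown first, because class II genes are known for this shared control element. RefSeq promoter windows of build GRCh38.p14, from 250 bases before to 50 bases after a gene start, were matched by symbol for 8 of the 10 members. HLA-DRA and CIITA had no entry. Each line gives the 120 bases from 130 to 11 bases before the start of one window, 5′ to 3′ on the gene's strand. Capitals mark AGNNACNGA, the X core (its reverse complement was searched as well), and ATTGG or its complement CCAAT, the Y box bound by NF-Y. These motifs do not overlap each other in the stretches shown. HLA-DOB, a class II gene that is not a member, is printed for comparison.
HLA-DRB1, chr6:32589859-32589978, minus strand: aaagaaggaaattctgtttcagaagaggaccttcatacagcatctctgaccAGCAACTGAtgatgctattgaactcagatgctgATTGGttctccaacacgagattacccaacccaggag
HLA-DQA1, chr6:32637276-32637395, plus strand: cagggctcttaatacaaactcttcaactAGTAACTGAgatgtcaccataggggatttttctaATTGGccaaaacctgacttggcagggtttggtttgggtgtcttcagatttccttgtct
HLA-DQB1, chr6:32666668-32666787, minus strand: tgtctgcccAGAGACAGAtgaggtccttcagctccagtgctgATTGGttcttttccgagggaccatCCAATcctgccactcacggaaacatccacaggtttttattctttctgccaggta
HLA-DMA, chr6:32953108-32953227, minus strand: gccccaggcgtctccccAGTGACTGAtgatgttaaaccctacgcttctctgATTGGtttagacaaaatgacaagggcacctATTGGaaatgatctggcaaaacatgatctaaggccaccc
HLA-DMB, chr6:32941039-32941158, minus strand: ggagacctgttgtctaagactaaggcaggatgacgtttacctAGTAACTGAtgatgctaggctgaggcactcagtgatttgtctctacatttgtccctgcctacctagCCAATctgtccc
HLA-DPA1, chr6:33073660-33073779, minus strand: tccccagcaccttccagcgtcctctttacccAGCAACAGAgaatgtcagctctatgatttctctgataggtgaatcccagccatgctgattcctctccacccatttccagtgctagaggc
HLA-DPB1, chr6:33075860-33075979, plus strand: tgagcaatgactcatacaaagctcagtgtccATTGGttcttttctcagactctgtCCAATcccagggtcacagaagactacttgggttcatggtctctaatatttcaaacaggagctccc
CD74, chr5:150412921-150413040, minus strand: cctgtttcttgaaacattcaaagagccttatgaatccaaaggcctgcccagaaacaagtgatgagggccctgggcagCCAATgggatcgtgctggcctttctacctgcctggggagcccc
HLA-DOB, chr6:32817013-32817132, minus strand: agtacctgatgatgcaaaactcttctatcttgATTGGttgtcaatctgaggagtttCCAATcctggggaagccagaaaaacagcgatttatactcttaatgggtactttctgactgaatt

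Of the 8 members with a window, 4 held an X core followed on the same strand by a Y box. The distance from the first base of one to the first base of the other was 33 bases in HLA-DRB1 and HLA-DQB1 and 34 bases in HLA-DQA1 and HLA-DMA. HLA-DMB held an X core 88 bases before its start and a Y box on the other strand. HLA-DPA1 had 2 windows, of which the one shown held an X core only and the other, at chr6:33080699-33080998, held no match. HLA-DPB1, CD74 and HLA-DOB held Y box matches only. Only these letters were searched, so that a missing match does not show that a promoter lacks an X or Y box. Among all 35116 windows, 15.3% held an X core on either strand, 34.6% a Y box on either strand and 0.0399% (14 windows) the X core with a Y box at these distances. Those 14 belonged to HLA-DRB1, HLA-DQA1, HLA-DQB1, HLA-DMA, HLA-DRB5, HLA-DOA and 8 genes outside the class II lists. The X core letters were chosen after these windows had been read, and the distances searched over all windows were those found in the members. The share of 0.0399% is therefore no independent background for the 4 members. The match is a description of the reference sequence, not of the alleles of these cells.

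**Figure D1:**
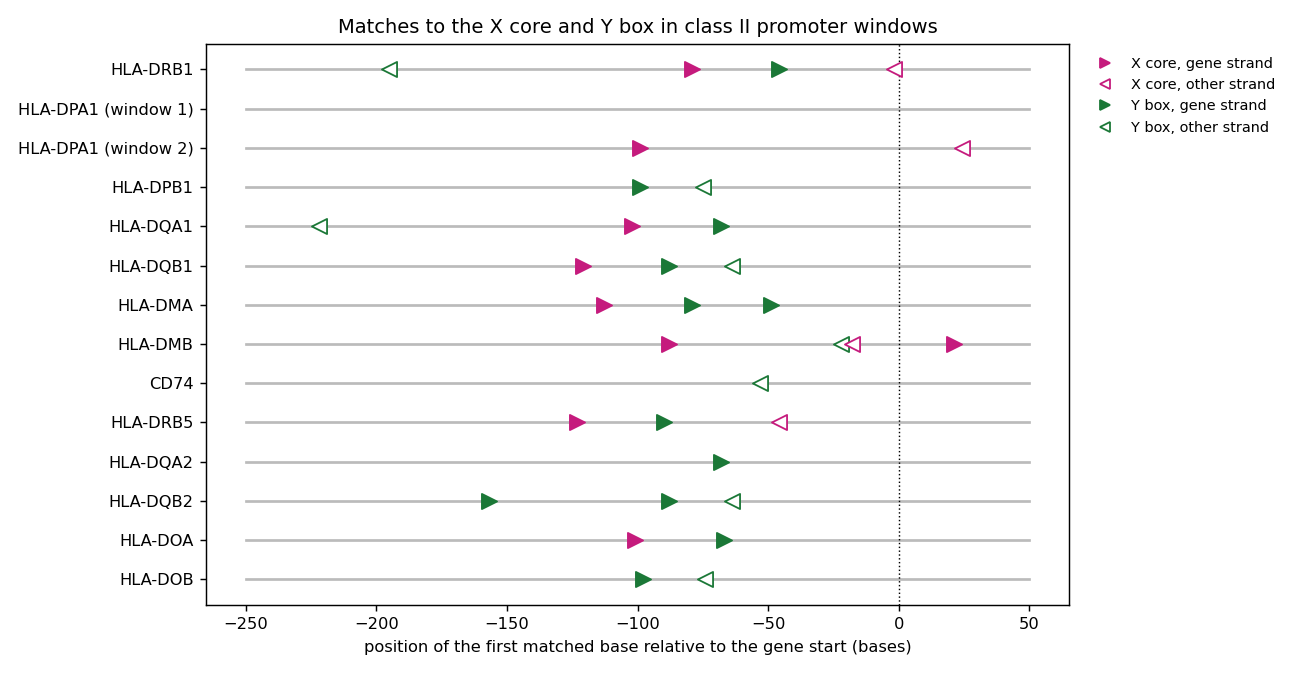
Positions of X core and Y box matches in the promoter windows of class II genes. The x axis is the distance in bases from the gene start (dotted line), filled markers are matches on the gene strand and open markers matches on the other strand; an X core lies 33 or 34 bases before a Y box in HLA-DRB1, HLA-DQA1, HLA-DQB1, HLA-DMA, HLA-DRB5 and HLA-DOA.

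In the deposited table (hg19 coordinates) the class II members lie on chromosome 6 between HLA-DRA, which starts at 32407619, and HLA-DPB1, which ends at 33057473. CD74 lies on chromosome 5 from 149781200 to 149792499 (minus strand) and CIITA on chromosome 16 from 10971055 to 11018840 (plus strand). Some rows cannot be cleanly separated. The row of HLA-DRB1 overlaps that of HLA-DRB5 by 67931 bases on the same strand, and those of HLA-DPA1 and HLA-DPB1 overlap by 4853 bases on opposite strands. Whether strand was used in counting is not given in the sources used here. The beta chain genes also have near-identical copies and vary between alleles, so their levels are less certain than those of HLA-DRA, HLA-DMA, CD74 and CIITA.

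Total counts ran from 15707587 to 24796539 per library. The 10 members together held between 0.0547% and 0.176% of all counts. Plasma cell marker RNA was high throughout, with a summed level of the 10 tested markers between 5037 and 8839 CPM (reads per 1e+06 counts, TMM-scaled) in MM1S and between 9666 and 11359 CPM in MM1R libraries. Of 10 markers of B cells 6 passed the filter, CD79B, CR2 and BACH2 among them, with a summed level between 180 and 274 CPM in MM1S and between 151 and 162 CPM in MM1R libraries, while MS4A1 and CD22 were at or under 3 counts in each library. Of 10 markers of monocytes, macrophages and dendritic cells 3 passed, with a summed level between 23.5 and 44.5 CPM over all libraries, and LYZ, ITGAX and FCGR1A were at or under 3 counts in each. The part of these markers in the results was not tested. In bulk RNA, fewer cells that express a gene and less RNA per cell cannot be told apart.

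In vehicle-treated MM1S cells CD74 was the most abundant member per kilobase, followed by HLA-DRA. Levels between genes are compared here as CPM per kilobase of the length given in the table. CD74 stood at 654 CPM per kilobase, above 99.7% of the tested genes, and HLA-DRA at 214, above 98.8%. HLA-DPA1 was at 39.0, HLA-DMA at 18.5, HLA-DRB1 at 15.5, CIITA at 10.5, HLA-DPB1 at 6.78, HLA-DMB at 1.79 and HLA-DQB1 at 0.993 CPM per kilobase. In the DR, DP and DM pairs the alpha chain row exceeded the beta chain row, whereas in the DQ pair HLA-DQA1 lay below HLA-DQB1. The ratio of HLA-DRA to HLA-DRB1 per kilobase was 13.4 and 14.2 in the 2 vehicle libraries, that of HLA-DPA1 to HLA-DPB1 5.31 and 6.26, and that of HLA-DMA to HLA-DMB 9.74 and 10.9. These ratios depend on the deposited lengths, 1.931 and 4.579 kb for HLA-DPA1 and HLA-DPB1 and 1.747 and 4.653 kb for HLA-DMA and HLA-DMB. Before division by length the DP means were 75.3 and 31.1 CPM and the DM means 32.2 and 8.35 CPM, so that the excess was smaller. HLA-DQA1, the DQ alpha chain, had 3 and 4 counts in these libraries, 10 and 1 upon TAK-981 treatment, 1 and 1 with Dex and 1 and 0 with combo. It had 0 to 3 counts in each MM1R library, so that no fold change is given for it.

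**Figure D2:**
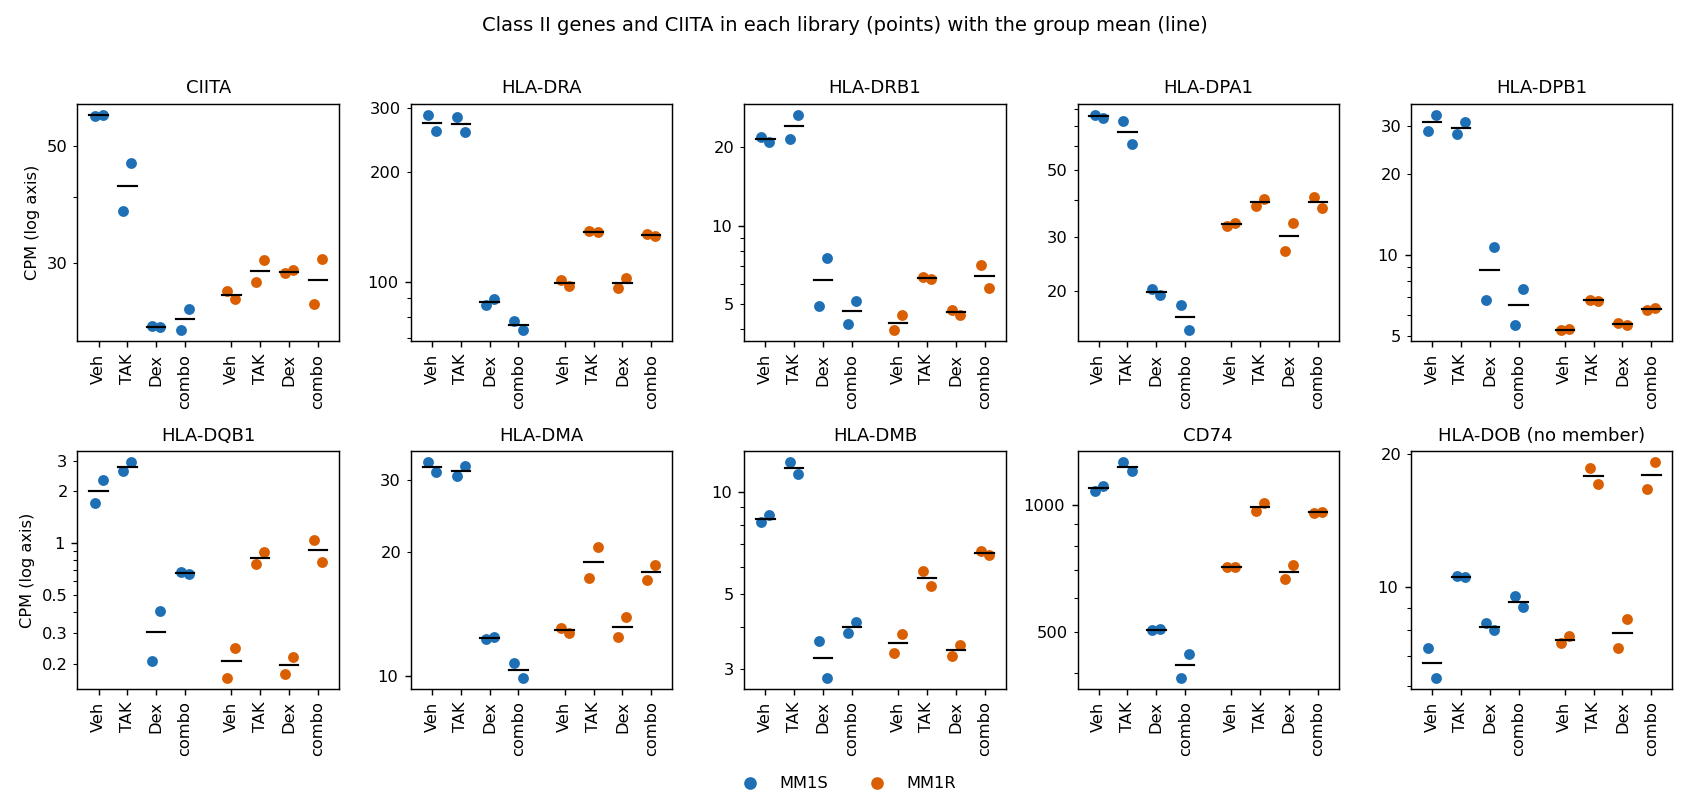
Level of 9 members and of HLA-DOB in each library. The y axes are logarithmic and differ between panels (CPM after TMM scaling), each point is 1 library, each black line the mean of 2 libraries, and the x axis gives the treatment in MM1S (blue) and MM1R (orange). In MM1S the Dex and combo points lie below the Veh and TAK points for each member but not for HLA-DOB, and in MM1R the Dex points lie with the Veh points.

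Dex lowered the 9 tested members in MM1S cells. They fell by 2.16-fold (CD74) to 6.38-fold (HLA-DQB1), with a median log2 fold change of −1.64 against 0.01 over all tested genes. In each of them both Dex libraries lay below both vehicle libraries, a separation that was not counted over all tested genes. The edgeR quasi-likelihood F test called 9 of 9, where 42.3% of all 14215 tested genes were called in either direction and 21.5% were called lower.

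CIITA stood at 56.9 and 57.2 CPM in the vehicle libraries and at 22.8 and 22.6 CPM in the Dex libraries of MM1S. The spread within each group was far smaller than the distance between the groups. Its log2 fold change was −1.33 (SE 0.10, edgeR adjusted p = 5.44e-09).

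Among the classical chains, HLA-DRA was at 287 and 260 CPM with vehicle and at 86.3 and 89.5 CPM with Dex, a log2 fold change of −1.64 (SE 0.07, edgeR adjusted p = 1.35e-12). HLA-DRB1 went from 21.9 and 21.1 CPM to 4.92 and 7.51 CPM (log2 fold change −1.79, SE 0.15). HLA-DPA1 went from 76.4 and 74.3 CPM to 20.2 and 19.4 CPM (log2 fold change −1.93, SE 0.11). HLA-DRA and HLA-DPA1 were close between the Dex libraries, which stood further apart for HLA-DRB1 and HLA-DPB1. HLA-DPB1 went from 28.9 and 33.2 CPM to 6.79 and 10.7 CPM (log2 fold change −1.82, SE 0.15). HLA-DQB1 rested on few reads, 36 and 45 counts with vehicle and 4 and 8 counts with Dex, and had a log2 fold change of −2.67 (SE 0.35, edgeR adjusted p = 5.46e-06).

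The genes of peptide loading fell as well. HLA-DMA was at 33.2 and 31.3 CPM with vehicle and at 12.3 and 12.5 CPM with Dex (log2 fold change −1.38, SE 0.10), and HLA-DMB at 8.13 and 8.56 CPM and then at 3.63 and 2.82 CPM (log2 fold change −1.37, SE 0.14). CD74 was at 1081 and 1106 CPM with vehicle and at 505 and 507 CPM with Dex (log2 fold change −1.11, SE 0.06, edgeR adjusted p = 8.28e-11). The ratio of CD74 to HLA-DRA per kilobase was therefore 2.87 and 3.26 in the vehicle libraries and 4.34 and 4.47 in the Dex libraries, without overlap. When single libraries were left out the 9 members stayed called, HLA-DRB1 between −2.13 and −1.52 and HLA-DPB1 between −2.20 and −1.53 on the log2 scale.

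Not every class II gene followed. HLA-DOB, which encodes the beta chain of HLA-DO, an inhibitor of HLA-DM, was at 7.28 and 6.25 CPM with vehicle and at 8.29 and 8.02 CPM with Dex in MM1S. Its log2 fold change of 0.27 (SE 0.13) had an edgeR adjusted p of 0.102. The other 3 tested class II genes outside the members fell, HLA-DRB5 by 2.16 on the log2 scale, HLA-DRB6 by 1.52 and HLA-DQB2 by 3.97 (edgeR adjusted p = 0.000759, 0.00168 and 0.00362). Their levels were 1.98, 2.35 and 0.487 CPM with vehicle and 0.430, 0.818 and 0.0252 CPM with Dex (means, n = 2), so that HLA-DQB2 rested on a few reads, and their rows share sequence with those of members. Of 10 tested genes of other functions that lie between or to either side of the class II genes on chromosome 6, 3 rose and 1 fell, where 20.8% of all tested genes were called higher and 21.5% lower. RXRB, a nuclear receptor, rose by 0.31 (log2, edgeR adjusted p = 0.000658) and SLC39A7, a zinc transporter, fell by 0.35 (edgeR adjusted p = 0.00204). TAP1, which pumps peptides to MHC class I molecules, rose by 0.20 (edgeR adjusted p = 0.0398).

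In MM1R cells no tested member passed the test for Dex. CIITA was at 26.6 and 25.6 CPM with vehicle and at 28.7 and 29.0 CPM with Dex. HLA-DRA was at 101 and 97.5 CPM and then at 96.2 and 102 CPM, and CD74 at 713 and 713 CPM and then at 668 and 720 CPM. The vehicle and Dex libraries overlapped in 6 of the 9 members tested and lay higher with Dex in the other 3. With 2 libraries a group, unchanged genes can separate in this way too. The share over all tested genes was not counted, so no result is read from the 3. Log2 fold changes ran from −0.13 to 0.14, and the 95% intervals were all between −1.28 and 1.15, the widest being that of HLA-DQB1. By edgeR 0 of 9 members and 0% of all tested genes were called (395 genes and 0 members at an unadjusted p under 0.05), and DESeq2 called 0 genes.

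The Dex response differed between the lines in each tested member. Tested as the interaction of line and Dex, the log2 difference (MM1R response minus MM1S response) was 1.64 for HLA-DRA (SE 0.09), 1.47 for CIITA, 1.07 for CD74 and 2.61 for HLA-DQB1, with a median of 1.64. The 9 members were called, where 28.1% of all tested genes were called in either direction and 15.0% were called higher. HLA-DQB1 had an edgeR adjusted p of 0.0118, which became 0.0745 without replicate 2 of MM1R Dex, while the largest adjusted p of the other 8 was 0.000134.

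**Figure D3:**
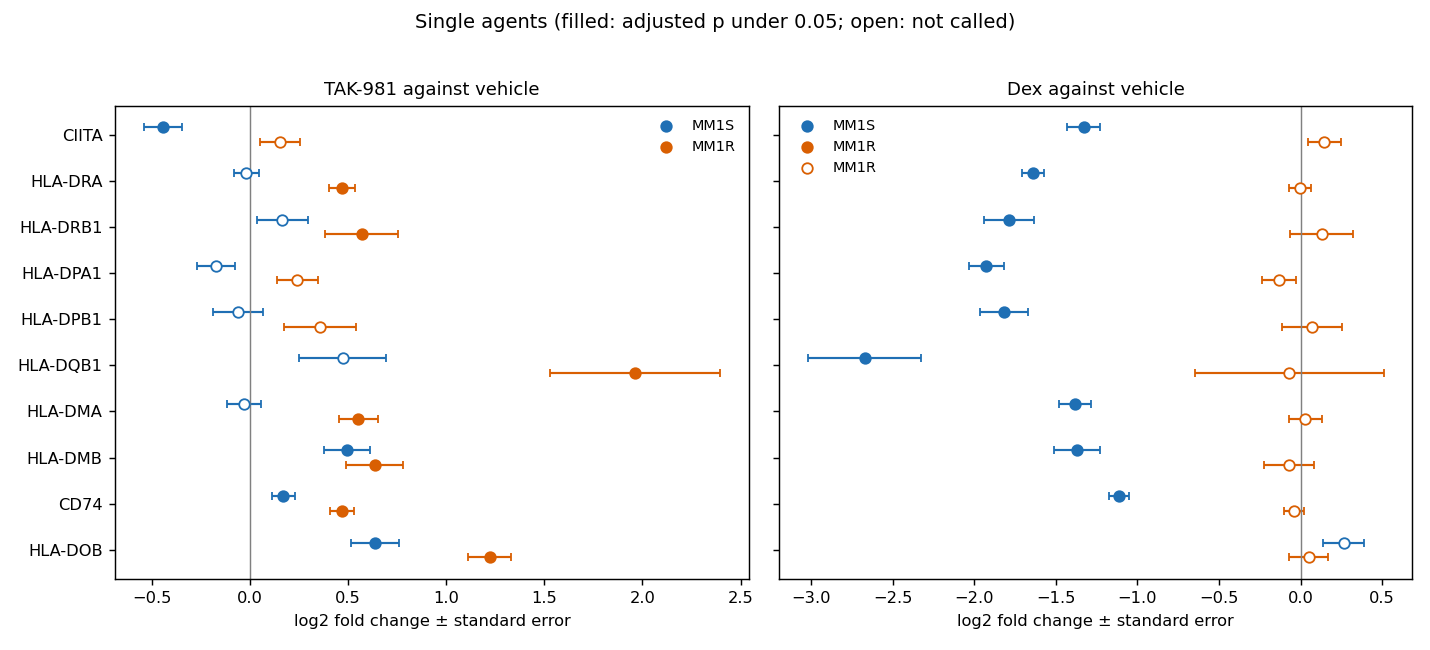
Log2 fold changes of 9 members and HLA-DOB upon TAK-981 (left) and Dex (right) against vehicle. Points are edgeR estimates with standard errors as bars, blue for MM1S and orange for MM1R, filled where the adjusted p is under 0.05. Dex values lie between −2.67 and −1.11 for the members in MM1S and near 0 in MM1R, and TAK-981 values of the members are above 0 in MM1R and on both sides of 0 in MM1S.

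Without either agent the tested members were lower in MM1R than in MM1S. Between vehicle-treated cells of the lines the 9 differed by 1.53-fold for CD74 to 9.39-fold for HLA-DQB1, with a median log2 fold change of −1.32 against 0.01 over all tested genes. All 9 were called, where 48.2% of all tested genes were called in either direction and 22.6% were called lower. For each of the 9 both MM1R libraries lay below both MM1S libraries, which was not counted over all tested genes. CIITA was lower by a log2 fold change of −1.13 (SE 0.10, edgeR adjusted p = 4.48e-08) and HLA-DRA by −1.46 (SE 0.07, edgeR adjusted p = 6.42e-12). In the DR and DP pairs the beta chain row stood further apart between the lines than the alpha chain row, with 95% intervals that did not overlap (−2.67 to −2.01 for HLA-DRB1 and −1.60 to −1.32 for HLA-DRA, −2.87 to −2.23 for HLA-DPB1 and −1.40 to −0.98 for HLA-DPA1).

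HLA-DRB1 was at 3.97 and 4.54 CPM in MM1R vehicle libraries (log2 fold change −2.34, SE 0.16) and HLA-DPB1 at 5.25 and 5.32 CPM (log2 fold change −2.55, SE 0.15). HLA-DPA1 was at 32.6 and 33.6 CPM (log2 fold change −1.19, SE 0.10). The ratio of HLA-DPA1 to HLA-DPB1 per kilobase was accordingly 14.7 and 15.0 in MM1R vehicle libraries, and that of HLA-DRA to HLA-DRB1 23.3 and 27.6. Both exceed the MM1S values given above. Whether alleles counted with unequal success contribute to these ratios was not tested. For HLA-DMA (13.1 and 12.7 CPM) and HLA-DMB (3.35 and 3.79 CPM) the log2 fold changes were −1.32 and −1.22, with 95% intervals that overlapped. HLA-DOB did not pass the test, at 7.48 and 7.75 CPM in MM1R and a log2 fold change of 0.17 (95% interval −0.09 to 0.43, edgeR adjusted p = 0.283).

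Ordered by group mean, CIITA was highest in MM1S Veh (57.0 CPM) and MM1S TAK (42.0 CPM). The 4 MM1R groups followed between 29.0 and 26.1 CPM, each overlapping the next in its libraries, and MM1S combo (23.5 CPM) and MM1S Dex (22.7 CPM) came last and overlapped each other. For HLA-DRA the order was MM1S Veh (274 CPM) and MM1S TAK (270 CPM), which overlapped, then MM1R TAK (137 CPM) and MM1R combo (134 CPM), then MM1R Veh (99.2 CPM) and MM1R Dex (99.1 CPM), which overlapped, and last MM1S Dex (87.9 CPM) and MM1S combo (75.8 CPM). CD74 kept to the same order except that MM1S TAK (1232 CPM) was above MM1S Veh (1093 CPM).

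TAK-981 moved single members of the group in MM1S, in both directions. CIITA fell, from 56.9 and 57.2 CPM to 37.6 and 46.4 CPM, with a log2 fold change of −0.44 (SE 0.10, edgeR adjusted p = 0.000903). HLA-DMB rose from 8.13 and 8.56 CPM to 12.2 and 11.3 CPM (log2 fold change 0.49, SE 0.12, edgeR adjusted p = 0.00180). CD74 rose from 1081 and 1106 CPM to 1262 and 1201 CPM (log2 fold change 0.17, SE 0.06, edgeR adjusted p = 0.0248). These 3 of 9 members were called, where 49.0% of all tested genes were called (25.2% higher and 23.7% lower). The call on CD74 was lost with library size as the only scaling (edgeR adjusted p = 0.0913), in a fit of only the compared groups (0.168) and without either vehicle library or replicate 1 of TAK.

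The remaining 6 members did not pass the test in MM1S. HLA-DRA was at 283 and 257 CPM upon TAK-981 treatment, overlapping the vehicle libraries, with a log2 fold change of −0.02 (95% interval −0.15 to 0.12). HLA-DMA was at 30.7 and 32.5 CPM (−0.03, 95% interval −0.22 to 0.16), and HLA-DPB1 at 28.2 and 31.2 CPM. HLA-DPA1 was at 72.6 and 61.3 CPM, below both vehicle libraries (edgeR adjusted p = 0.156), and HLA-DQB1 at 2.59 and 2.93 CPM, above both (edgeR adjusted p = 0.0883). HLA-DRB1 stood at 21.6 and 26.7 CPM.

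In MM1R cells TAK-981 raised most of the group. For each tested member both TAK libraries lay above both vehicle libraries, though the share of all tested genes that did so was not counted. By the test 6 of the 9 were called higher and 0 lower. Of all tested genes 53.4% were called in either direction and 25.8% were called higher. The median log2 fold change of the members was 0.47, against 0.00 over all tested genes. HLA-DRA rose from 101 and 97.5 CPM to 138 and 137 CPM (log2 fold change 0.47, SE 0.07, edgeR adjusted p = 1.12e-05). CD74 rose from 713 and 713 CPM to 966 and 1011 CPM (0.47, SE 0.06, edgeR adjusted p = 3.61e-06).

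Both HLA-DM genes rose in MM1R. HLA-DMA went to 17.3 and 20.6 CPM (log2 fold change 0.55, SE 0.10, edgeR adjusted p = 0.000144) and HLA-DMB to 5.85 and 5.27 CPM (0.64, SE 0.14, edgeR adjusted p = 0.00121). HLA-DRB1 went to 6.39 and 6.26 CPM (0.57, SE 0.19, edgeR adjusted p = 0.0152), a call that was lost without replicate 1 of Veh (edgeR adjusted p = 0.104) or either replicate of TAK. HLA-DQB1 went from 4 and 6 counts to 14 and 18 counts (1.96, SE 0.43, edgeR adjusted p = 0.000946). The transactivator was not among the members called, and whether it had a part in these rises was not tested. CIITA was at 27.6 and 30.3 CPM with a log2 fold change of 0.15 (95% interval −0.06 to 0.37, edgeR adjusted p = 0.221). HLA-DPA1, at 38.2 and 40.1 CPM, was 0.24 higher on the log2 scale (edgeR adjusted p = 0.0554), and HLA-DPB1, at 6.82 and 6.75 CPM, 0.36 higher (edgeR adjusted p = 0.110).

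HLA-DOB rose upon TAK-981 treatment in both lines, to 10.6 and 10.6 CPM in MM1S (log2 fold change 0.64, SE 0.12, edgeR adjusted p = 0.000278) and to 18.5 and 17.0 CPM in MM1R (1.22, SE 0.11, edgeR adjusted p = 4.51e-08). The difference between these responses had an edgeR adjusted p of 0.0539.

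Differences between the lines in this response were tested for the members as the interaction of line and TAK-981. The response was higher in MM1R for HLA-DRA (log2 difference 0.48, SE 0.09, edgeR adjusted p = 0.00540), HLA-DMA (0.58, SE 0.13, edgeR adjusted p = 0.0185) and CIITA (0.59, SE 0.14, edgeR adjusted p = 0.0220), and 4.16% of all tested genes were called in this contrast, 3.19% as higher. CD74 had a log2 difference of 0.30 (edgeR adjusted p = 0.0553) and HLA-DMB one of 0.14 (95% interval −0.25 to 0.53). The number of members called was 1 without replicate 1 of MM1S Veh, either replicate of MM1R Veh or replicate 2 of MM1R TAK, and 5 without replicate 1 of MM1S TAK. HLA-DRA remained called under each alternative, with an edgeR adjusted p of at most 0.0486 when a library was left out.

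With combo, too, the 9 tested members fell against vehicle in MM1S, with a median log2 fold change of −1.64, where 60.3% of all tested genes were called in either direction and 29.5% were called lower. CIITA was at 22.4 and 24.6 CPM, HLA-DRA at 78.2 and 73.5 CPM and CD74 at 389 and 443 CPM. Compared with Dex alone, CD74 (log2 fold change −0.28, SE 0.06, edgeR adjusted p = 0.000943) and HLA-DRA (−0.21, SE 0.07, edgeR adjusted p = 0.0159) were lower with combo, while 47.6% of all tested genes were called in either direction and 25.4% were called lower. The call on HLA-DRA was lost in a fit of only the compared groups (edgeR adjusted p = 0.0674), without replicate 2 of MM1S Dex (0.0891) and without replicate 2 of MM1S combo (0.126). The count of 2 was 4 without replicate 1 of MM1S Dex. The other members gave values on both sides, from HLA-DPB1 (5.51 and 7.48 CPM, log2 fold change −0.43, edgeR adjusted p = 0.0612) to HLA-DQB1 (11 and 12 counts, log2 fold change 1.11, edgeR adjusted p = 0.0502).

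The Dex effect in the presence of TAK-981 was read from combo against TAK-981. All 9 tested members were lower in MM1S, with a median log2 fold change of −1.83, where 35.1% of all tested genes were called in either direction and 20.6% were called lower. Whether TAK-981 altered the Dex effect was tested as their interaction, which called 14.9% of all tested genes (5.47% higher and 9.48% lower). CIITA fell less by Dex in the presence of TAK-981, −0.84 instead of −1.33 (interaction 0.49, SE 0.15, edgeR adjusted p = 0.0303). CD74 fell more, −1.57 instead of −1.11 (interaction −0.45, SE 0.09, edgeR adjusted p = 0.00169). The interaction of the other 7 did not pass the test, HLA-DRB1 having the largest in size among the better counted (−0.57, 95% interval −1.06 to −0.08, edgeR adjusted p = 0.112). The call on CIITA was lost in a fit of only the 4 MM1S groups (edgeR adjusted p = 0.0867) and when replicate 1 of TAK, replicate 2 of Dex or any Veh or combo library was left out.

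**Figure D4:**
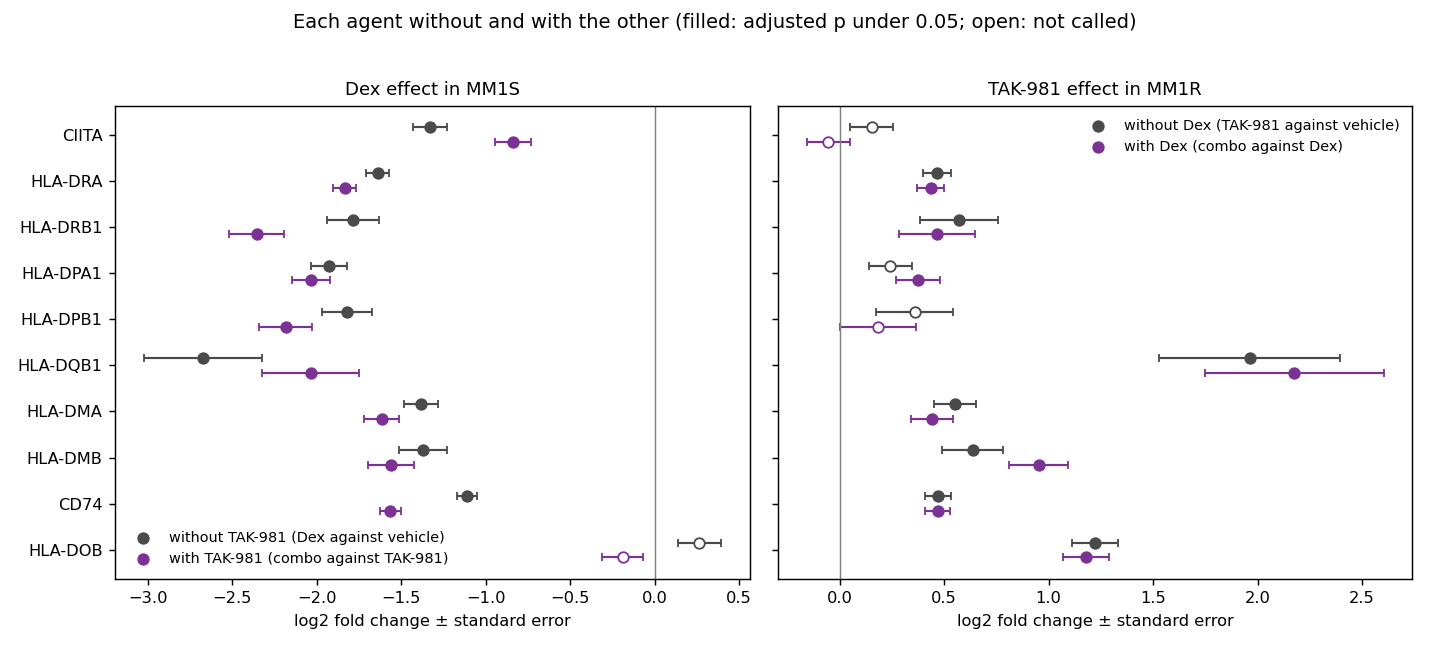
Effect of each agent without and with the other. The left panel plots the log2 fold change by Dex in MM1S without TAK-981 (grey) and with it (purple), the right panel that by TAK-981 in MM1R without and with Dex; bars are standard errors and filled points have an adjusted p under 0.05. In MM1S the purple point of CIITA lies to the right of the grey point and that of CD74 to the left, and in MM1R the grey and purple points of HLA-DRA and CD74 lie close together.

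In MM1R, combo raised 6 of the 9 tested members against vehicle (51.5% of all tested genes were called, 24.8% as higher) and 7 against Dex alone (48.4% were called, 23.1% as higher). Of the 7, HLA-DRB1 and HLA-DPA1 were the least stable. With 1 library left out their log2 fold changes against Dex alone ran from 0.31 to 0.60 and from 0.23 to 0.54. HLA-DRA was at 135 and 133 CPM, CD74 at 958 and 963 CPM, HLA-DMA at 17.2 and 18.7 CPM and HLA-DMB at 6.70 and 6.50 CPM with combo. CIITA was at 25.1 and 30.5 CPM, overlapping the vehicle libraries. Against TAK-981 alone 0 of 9 members and 0% of all tested genes were called by edgeR (214 genes and 0 members at an unadjusted p under 0.05), and by DESeq2 0 genes. The interaction of TAK-981 and Dex in MM1R likewise called 0 of 9 members and 0% of all tested genes (400 genes and 0 members at an unadjusted p under 0.05, DESeq2 0 genes).

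Genes of the proteins that assemble on the X and Y boxes were called in both directions upon TAK-981 treatment but not with Dex in MM1S. No result about the list as a whole is read from the counts below. Of 8 tested, 2 fell and 0 rose with Dex in MM1S, where 21.5% of all tested genes were called lower and 20.8% higher. RFX5, the DNA-binding subunit of RFX, was at 177 ± 1.7 CPM with vehicle and 128 ± 11 CPM with Dex (SD, n = 2; log2 fold change −0.46, SE 0.06, edgeR adjusted p = 9.20e-06), and RFXAP, another RFX subunit, fell by 0.54 on the log2 scale (edgeR adjusted p = 0.00639). Between the vehicle-treated lines 1 of the 8 was called, NFYA (higher in MM1R, 0.20, edgeR adjusted p = 0.0344), where 48.2% of all tested genes were called, and RFX5 differed by 0.09 on the log2 scale (edgeR adjusted p = 0.261). TAK-981 raised 2 and lowered 2 of the 8 in MM1S and raised 3 and lowered 2 in MM1R, where 25.2% and 25.8% of all tested genes were called higher and 23.7% and 27.6% lower. NFYC rose in both lines (0.43 and 0.30) and RFXAP fell in both (−0.66 and −0.57).

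Activators and coactivators of CIITA or class II transcription were called in both directions. Of 18 tested, 7 rose and 3 fell with Dex in MM1S, with a median log2 fold change of 0.13, where 20.8% of all tested genes were called higher and 21.5% lower. IRF4, a factor of plasma cell identity, fell by 0.90 (edgeR adjusted p = 5.91e-10), from 1226 ± 40 to 659 ± 12 CPM (SD, n = 2). IFNGR1, a chain of the interferon gamma receptor, rose by 0.91 and IRF8 by 0.82. Upon TAK-981 treatment 6 rose and 3 fell in MM1S, and 10 rose and 3 fell in MM1R, against 25.2% higher and 23.7% lower of all tested genes in MM1S and 25.8% and 27.6% in MM1R. IRF1 rose in both lines, by 0.64 and 0.70, while IRF4 fell by 0.60 and 0.66 and TCF3 by 0.65 and 0.71 on the log2 scale. Between the vehicle-treated lines 6 were higher in MM1R, TCF3 (0.63) and CARM1 (0.44) among them, and 2 were lower, JAK1 (−0.37) and JAK2 (−0.33), where 25.6% of all tested genes were called higher and 22.6% lower.

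Of 12 tested repressors, 1 rose and 2 fell with Dex in MM1S, where 42.3% of all tested genes were called (20.8% higher and 21.5% lower). SOCS1, an inhibitor of JAK signalling, rose from 3.23 to 6.97 CPM (log2 fold change 1.11, edgeR adjusted p = 5.12e-05), and the silencing enzymes EZH2 (−0.77) and DNMT1 (−0.49) fell. TAK-981 gave the same directions for these 3 genes in both lines. PRDM1, which encodes the repressor BLIMP1, was at 728 CPM with vehicle and 729 CPM with Dex in MM1S. In vehicle-treated MM1R 6 repressors were higher than in MM1S and 0 were lower, DNMT1 (0.33), TRIM28 (0.45), EZH2 (0.26) and HDAC3 (0.23) leading by adjusted p, where 25.6% of all tested genes were called higher and 22.6% lower. The count of 6 was 3 with library size as the only scaling and 3 when any 1 of the 4 vehicle libraries was left out.

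**Figure D5:**
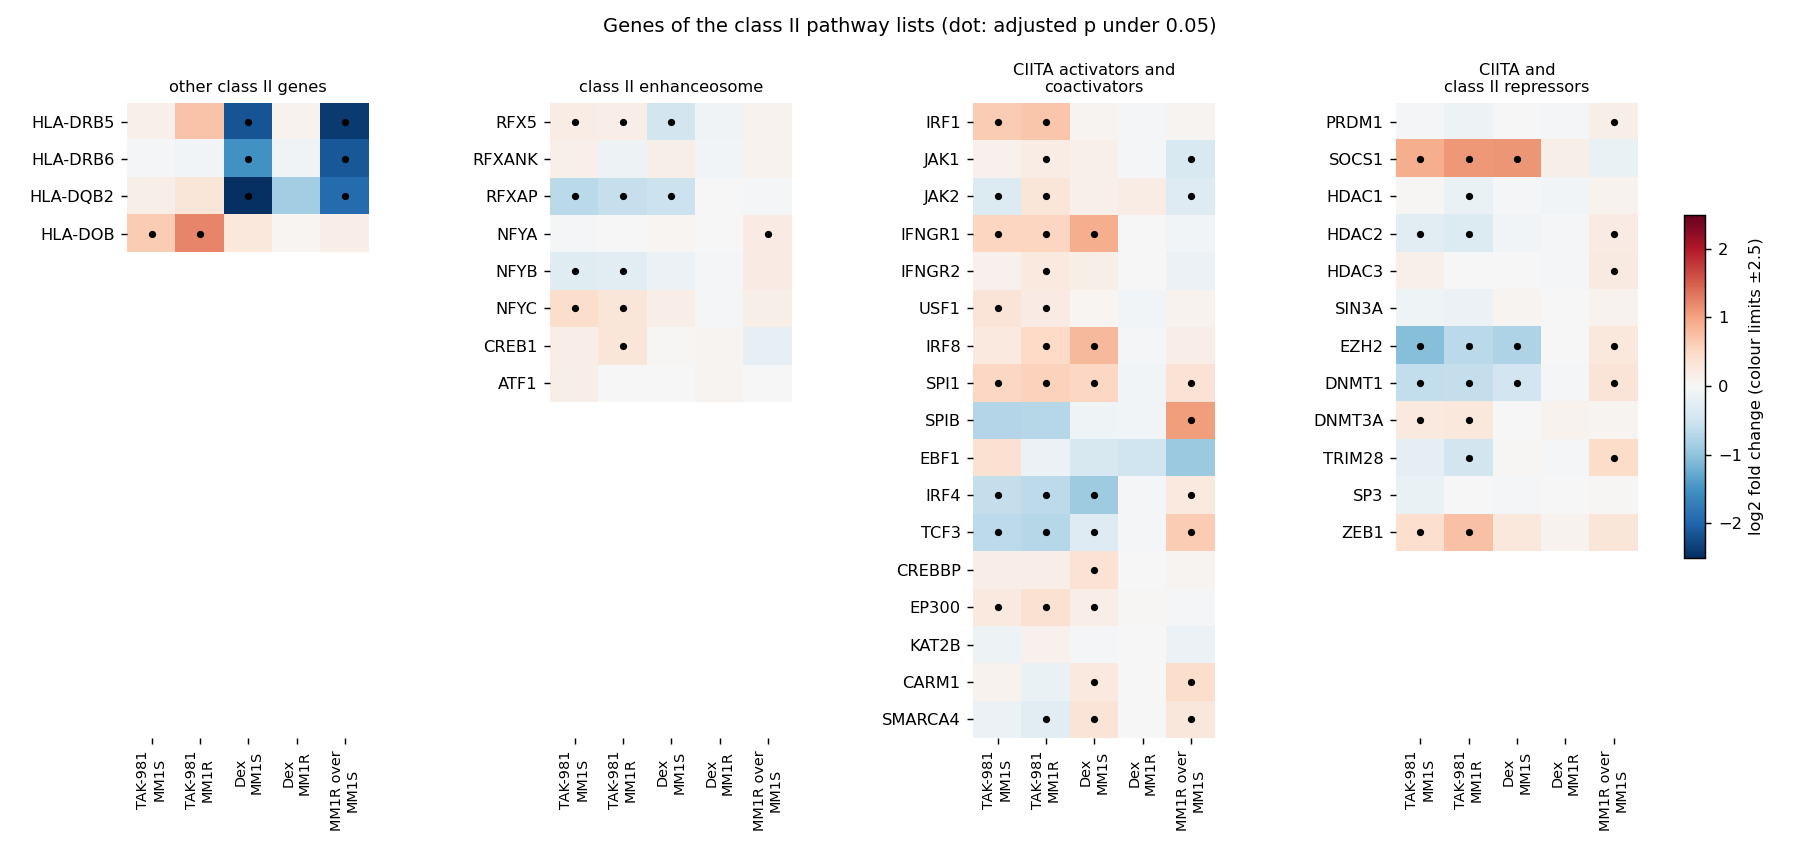
Log2 fold changes of tested genes of 4 pathway lists, not all of which are drawn. Columns are TAK-981 and Dex against vehicle in each line and vehicle-treated MM1R over MM1S, colour gives the log2 fold change (red higher, blue lower, limits −2.5 and 2.5) and dots mark an adjusted p under 0.05. The Dex column of MM1R holds no dot, and HLA-DRB5, HLA-DRB6 and HLA-DQB2 are blue in the Dex column of MM1S where HLA-DOB is not.

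Of 14 tested genes of endosomal peptide processing and class II turnover, 2 rose and 3 fell with Dex in MM1S (all tested genes 20.8% higher and 21.5% lower). CTSS, the cathepsin that trims the invariant chain, rose from 87.9 ± 4.8 to 121 ± 1.2 CPM (SD, n = 2; log2 fold change 0.46, edgeR adjusted p = 1.62e-05), and LGMN, an asparaginyl endopeptidase of the same pathway, fell by 0.48. Upon TAK-981 treatment 8 rose and 1 fell in MM1S (all tested genes 25.2% higher and 23.7% lower) and 6 rose and 2 fell in MM1R (25.8% and 27.6%). CTSS rose in both lines (1.09 and 1.42), as did MARCH8, a ubiquitin ligase of class II and other surface molecules (0.67 and 0.65), and SPPL2A, which cleaves the last CD74 remnant (0.49 in each). In vehicle-treated MM1R CTSS (−0.85), MARCH8 (−0.58) and LGMN (−1.04) were lower and CTSH (1.05) was higher than in MM1S. Among the chromosomal neighbours, TAP1 and PSMB9, both of the class I pathway, rose upon TAK-981 treatment in MM1S (0.68 and 0.57) and MM1R (0.91 and 0.69).

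Over the 8 group means, each member was most like the following genes by Pearson r of log2 CPM. This is a description over points that share a line, and no p is given. HLA-DRA and HLA-DMA were most like each other among all genes considered (r = 0.997). HLA-DRB1 was most like HLA-DPB1 (0.985), and HLA-DPB1 was most like C3orf70 (0.990) with HLA-DRB1 next. CIITA was most like ANKIB1 (0.993), a gene that is no member of the lists, CD74 most like SDCBP (0.989), HLA-DMB most like NOD2 (0.983), HLA-DPA1 most like MEX3C (0.985) and HLA-DQB1 most like ZNF614 (0.983).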

How the data were processed

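The Ribo-Zero RNA-seq of MM1S and MM1R cells comprised 16 libraries, 2 in each of 8 groups taken from the sample labels. The authors deposited 1 raw read count per gene and library, with hg19 positions and a gene length. The submitters' processing notes name bcl2fastq 2.18.0.12, STAR 2.6.0, HTSeq 0.6.0, edgeR 3.28.1 and hg19; whether strand was used in counting is not given in the sources used here. The labels give no batch.

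Counts were used as deposited in R 4.3.3. Genes were kept with edgeR 4.0.16 filterByExpr defaults (14215 of 23354), scaled with TMM, and fitted in all 16 libraries with a robust quasi-likelihood model of 1 term per group (8 residual degrees of freedom). The 15 contrasts were tested with its F test and adjusted by Benjamini-Hochberg over all tested genes, called at 0.05. CPM values are TMM-scaled and log2 CPM used a prior count of 2. A group at or under 3 counts per library was treated as at the floor.

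Total counts were 15707587 to 24796539 per library. Counting error is therefore small for CD74 and HLA-DRA and large for HLA-DQB1.

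The members and gene lists were chosen with earlier results of these data known. All members were named, and of each pathway list up to 4 genes per main comparison with the smallest adjusted p, with others named for their role (PRDM1, HLA-DOB, RFX5) or because they recurred between comparisons after their values were seen. Some results are not reported here. The script was tested on simulated data. Alternatives were RLE, library size only, no filter, DESeq2 1.42.0, a replicate block, a fit of only the groups compared, near-identical class II rows summed (HLA-DRB1 with HLA-DRB5 and HLA-DRB6, HLA-DQA1 with HLA-DQA2, HLA-DQB1 with HLA-DQB2) and each library left out in turn.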

Additional observations from a re-analysis of the deposited data

Results flagged for a closer look

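Responses that differed between the lines, or between the presence and absence of the other agent, were marked by an interaction term with an edgeR adjusted p under 0.05. For Dex the log2 response in MM1R minus that in MM1S was 1.64 for HLA-DRA, 1.92 for HLA-DRB1, 1.80 for HLA-DPA1, 1.89 for HLA-DPB1, 2.61 for HLA-DQB1, 1.41 for HLA-DMA, 1.30 for HLA-DMB, 1.07 for CD74 and 1.47 for CIITA. For TAK-981 it was 0.48 for HLA-DRA, 0.58 for HLA-DMA and 0.59 for CIITA. In MM1S the interaction of TAK-981 and Dex was −0.45 for CD74 and 0.49 for CIITA. Groups of 2 libraries were not searched for libraries that stand apart. Their agreement over all genes differed, a larger chi-square per degree of freedom between the counts meaning less agreement. It was 21.2 in MM1S TAK, 19.2 in MM1S Dex, 9.14 in MM1R Dex and between 2.08 and 5.18 in the other groups. The main model shared its estimate of the spread over all groups. Standard errors and p-values of comparisons with MM1S TAK or MM1S Dex may therefore be too small.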

How the results depend on the processing

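The alternatives other than leaving a library out gave 942 log2 fold changes of the members. Of these, 906 kept their side of the threshold, 30 gained a call and 6 lost one. A value near 0 that was not called could change sign within the main standard error and still count among the 906. With 1 library left out, 9 of 684 values changed sign by a shift of more than that standard error. Under all alternatives 0 called values reversed. The calls of the 9 tested members for Dex in MM1S, combo against vehicle and against TAK-981 in MM1S and the vehicle-treated lines held under each alternative. The count of members changed for combo against Dex in MM1S (2) was 5 without the filter, 6 with the replicate block, 1 in a fit restricted to the compared groups, and 2 to 4 with 1 library left out. That for the difference between the lines in the TAK-981 response (3) was 5 without the filter, 5 with the replicate block and 1 to 5 with 1 library left out. That for the interaction of TAK-981 and Dex in MM1S (2) was 1 in that restricted fit and 1 to 4 with 1 library left out. The cause was not tested. HLA-DRB1 for combo against Dex in MM1R had an adjusted p of 0.0527 with near-identical rows summed and 0.0596 by DESeq2, and HLA-DRA for combo against Dex in MM1S one of 0.0674 in the restricted fit.

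The labels do not tie a replicate number to a batch, and the main model did not pair the libraries. Deviations of same-numbered libraries from their group means correlated at 0.016 to 0.263 in MM1S and at −0.013 to 0.082 in MM1R. Whether same-numbered libraries share a source of variation was not tested. With the replicate block 8 of 9 members were called for TAK-981 in MM1R (6 without it) and 4 in MM1S (3 without it), and the other counts not named above were within 1 of the main counts. With library size as the only scaling, all tested genes split into 3073 higher and 3808 lower for TAK-981 in MM1S (3586 and 3374 with TMM) into 2942 and 3840 between the vehicle-treated lines (3637 and 3213 with TMM) and into 1033 and 908 for the interaction of TAK-981 and Dex in MM1S (777 and 1348 with TMM), while the called members kept their directions. Counts over all genes moved as well. For the difference between the lines in the TAK-981 response 453 were higher and 139 lower in the main model, 832 and 481 without the filter and 1114 and 947 with the replicate block. For the interaction in MM1S the block gave 1383 higher and 2196 lower and the restricted fit 292 and 487. In MM1R, where the main model called 0 genes, the unfiltered fit called 18 higher and 12 lower for Dex, 4 and 5 for combo against TAK-981 (the restricted fit 0 and 3) and 4 and 15 for the interaction. Depth limited HLA-DQB1 most, with 4 to 57 counts per library, and HLA-DQA1 did not pass the filter of the main model. It passed in some fits with 1 library left out, and without replicate 2 of MM1S TAK 10 members, HLA-DQA1 included, were called lower for combo against TAK-981 in MM1S.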
